A study of Mus musculus with 24 samples.

Results

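Genes of the axon guidance and neural adhesion families were followed in P19 cells, a mouse embryonal carcinoma line that forms neurons when exposed to retinoids. The members were all gene symbols in any of 23 tables of expression change that carry a family name, apart from 1 not reported here. The guidance names were semaphorin, plexin, neuropilin, ephrin, Eph receptor, Slit, Robo, netrin, Unc5 and Dcc. The adhesion names were cadherin, protocadherin, contactin, neurexin, neuroligin, teneurin, Ncam-type adhesion gene and leucine-rich repeat adhesion gene. These names gave 47 of the 1753 genes listed in at least 1 table. They comprised 11 guidance ligands, 13 guidance receptors, 5 cadherins, 3 protocadherins, 4 contactin-type genes, 7 synaptic organizers and 4 other leucine-rich repeat genes. No symbol beginning with Ncam, L1cam, Chl1, Nlgn, Lingo, Dscam, Cadm or Igsf was in any table.

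The RNA came from 24 P19 libraries, 1 per condition, which leaves every difference between conditions without replicates to check it. WT cells received all-trans retinoic acid (ATRA, a ligand of all the retinoic acid receptors) at 1 μM, the RARα agonist BMS753 at 1 μM, the combination of the RARβ agonist BMS641 and the RARγ agonist BMS961 at 0.1 μM each, or ethanol (EtOH, the vehicle), and were sampled at days 2, 4 and 10. WT cells with BMS961 alone were sampled at day 10. Ligands were present for 4 d, and day 10 cells then spent 6 d in Neurobasal medium with N2 and B27 supplements lacking vitamin A. The Rara-/- line was sampled at day 10 with ATRA, BMS961 or the combination, the Rarb-/- line with ATRA, BMS753, BMS961 or the combination, and the Rarg-/- line with ATRA, BMS753, BMS641 or the combination. These lines were made with CRISPR/Cas9 and a puromycin resistance cassette, and whether each is a single clone is not given in the sources used here. Every value below is the authors' log2 fold change of 1 library relative to WT ethanol day 2, the vehicle-treated WT library of day 2. All comparisons share that reference, and mutant lines without ligand were not analysed here, so a difference between the WT and mutant lines themselves and an effect of the ligand in a mutant line cannot be told apart. Doses differed between ligands, and their values are set side by side without a comparison of potency. Rara, Rarb and Rarg were in none of the tables, which leaves no check of the knockouts themselves.

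Growing axons carry receptors that read secreted or membrane-bound cues. Netrins act through Dcc and Unc5 receptors, Slits through Robo receptors, class 3 semaphorins through neuropilins with plexins as the signalling partner, and ephrins through Eph receptor tyrosine kinases. Cadherins, protocadherins, contactins and neurexins hold neural cells or synapses together. Cells that leave the epithelial state commonly lose E-cadherin (Cdh1) and gain other cadherins.

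The tables hold only genes with an unadjusted p-value under 0.01, and genes outside a table, written as not listed below, may or may not have changed. The error printed with each value is the standard error (SE) implied by the fold change and its p-value, a model error within single libraries and not a spread between replicates. It ran from 0.53 to 2.82 over the 200 member values, with a median of 1.84. The day 10 tables began at absolute values between 4.17 and 4.73 with ATRA or BMS753 and between 2.71 and 3.35 with the other agonists or vehicle (the smallest value each holds). A member that moved by 3 to 4 log2 units could therefore be listed in the latter tables and not in the former. In these bulk samples, fewer cells of a type and less RNA per cell cannot be told apart.

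The 5 promoters below are shown because Nrp1, Epha3 and Unc5c had positive values in the same 9 day 10 libraries, Unc5a is a relative of Unc5c with negative values, and Pcdh8 had the largest member value at day 2. Each sequence is the 250 bases before the RefSeq transcript start, read 5′ to 3′ on the gene's strand, and each matched the mm9 genome exactly and at a single place. Capitals mark a retinoid receptor half-site (AGGTCA on either strand, and so TGACCT where it lies on the other strand) or a TATA box (the letters TATAAA). The windows are chr8:130882723-130882972 on the plus strand for Nrp1, chr16:63864002-63864251 on the minus strand for Epha3, chr3:141128278-141128527 on the plus strand for Unc5c, chr13:55050522-55050771 on the plus strand for Unc5a, and chr14:80171120-80171369 on the minus strand for Pcdh8.
Nrp1: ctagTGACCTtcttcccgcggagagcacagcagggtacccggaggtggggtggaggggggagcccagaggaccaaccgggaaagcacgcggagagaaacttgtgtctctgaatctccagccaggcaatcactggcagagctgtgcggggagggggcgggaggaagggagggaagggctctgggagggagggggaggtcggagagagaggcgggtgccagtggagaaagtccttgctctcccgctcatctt
Epha3: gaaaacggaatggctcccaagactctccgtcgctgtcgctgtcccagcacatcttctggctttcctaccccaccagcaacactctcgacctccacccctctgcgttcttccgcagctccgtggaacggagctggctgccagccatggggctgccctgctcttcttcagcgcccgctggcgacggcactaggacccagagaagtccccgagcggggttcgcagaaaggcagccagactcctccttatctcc
Unc5c: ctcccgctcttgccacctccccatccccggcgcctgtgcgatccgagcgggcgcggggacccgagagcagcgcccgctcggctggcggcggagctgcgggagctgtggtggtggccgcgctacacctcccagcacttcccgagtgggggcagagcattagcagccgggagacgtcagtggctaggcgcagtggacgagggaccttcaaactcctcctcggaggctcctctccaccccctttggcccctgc
Unc5a: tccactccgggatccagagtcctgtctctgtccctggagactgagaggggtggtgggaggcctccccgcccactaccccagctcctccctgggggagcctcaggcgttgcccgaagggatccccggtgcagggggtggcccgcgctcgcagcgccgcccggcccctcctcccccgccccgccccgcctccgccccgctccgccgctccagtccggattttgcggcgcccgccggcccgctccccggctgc
Pcdh8: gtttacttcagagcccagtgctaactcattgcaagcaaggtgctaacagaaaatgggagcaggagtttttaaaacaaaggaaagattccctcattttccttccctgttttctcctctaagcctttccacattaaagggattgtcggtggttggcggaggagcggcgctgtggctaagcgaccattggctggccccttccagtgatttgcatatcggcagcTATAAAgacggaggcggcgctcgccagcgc

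Windows of this kind were found for 38 members, some with several starts, giving 46 windows. Direct repeats of the half-site AGGTCA or its spelling variants (first the form GGGTCA, then the form AGTTCA, then the form GGTTCA), searched on both strands at spacings of 5, 2 and 1 bases (DR5, DR2 and DR1), were in 0 of the 46 member windows and in 0.0883%, 0.174% and 0.164% of all 32851 RefSeq windows. A lone AGGTCA was in 4 member windows, those of Cdh18, Nrp1, Sema5a and Sema6b, a share of 8.70% beside 14.0% of all windows. In Nrp1 it lay 246 to 241 bases before the start, on the minus strand. TATAAA was in 2 member windows, those of Cntn1 and Pcdh8, a share of 4.35% beside 12.4%, and in Pcdh8 it lay 30 to 25 bases before the start. The median GC content was 60.6% in member windows and 52.4% in all windows, with 12 and 6 CpG dinucleotides. Unc5a had 76.8% GC and Unc5c 71.2%, while Pcdh8 had 51.2%. A match of letters is a description of the sequence and does not show binding, and a missing match says only that these letters are not in these windows.

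Up-regulated here means a log2 fold change over 2, which is 4-fold, and down-regulated the same size in the other direction. Over the 23 tables, 34 members were up-regulated in at least 1 and down-regulated in none, 12 the reverse, and 0 went both ways. Sema6a was listed once, at 1.40, and passed neither threshold. The members that went up only were 72.3% and those that went down only 25.5%, compared with 64.2% and 33.9% of all listed genes, of which 12 of 1753 went both ways. Of the members, 19 (40.4%) were in 1 table and 17 (36.2%) in 6 or more, where all genes gave 33.1% and 29.3%.

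At day 10, WT cells with ATRA had 12 up-regulated members (25.5% of 47) beside 22.5% of all 1753 genes, and those with BMS753 had 11 (23.4%) beside 21.8%, both close to the background. WT cells with the combination had 4 (8.51%) beside 9.87%, those with BMS961 alone 2 beside 8.16%, and those with vehicle 1 (2.13%) beside 9.53%. Rara-/- cells had 14 (29.8%) with ATRA beside 19%, 14 (29.8%) with BMS961 beside 10.9%, and 17 (36.2%) with the combination beside 16.8%. Rarb-/- cells had 18 (38.3%) with ATRA beside 20.5%, 14 with BMS753 beside 22.3%, 1 with BMS961 beside 7.02%, and 3 with the combination beside 8.27%. Rarg-/- cells had 13 with ATRA beside 21.4%, 13 with BMS753 beside 19.9%, and 1 each with BMS641 and the combination beside 8.5% and 8.61%. The member share thus stood above the share of all genes by the widest margin in the Rara-/- libraries with BMS961 or the combination and in the Rarb-/- library with ATRA. Some members entered only through 1 of these libraries, namely Efna1, Sema5a, Slitrk6, Nrp2, Pcdh7 and Lrfn2 through the Rarb-/- one. Cntn4 and Lrrc47 entered only through the Rara-/- one with BMS961. The base of all genes was chosen in the same way. No test of these shares was made. Above a log2 fold change of 5, which exceeds the smallest value of each table but not the listing limit of members with a large SE such as Pcdh8 and Lrrc73, the counts in these libraries were 5 (10.6% beside 6.62% of all genes), 7 (14.9% beside 9.93%) and 13 (27.7% beside 18.8%), with 12 (25.5% beside 21.5%) in WT cells with ATRA. Under a p-value limit of 0.001 they were 0 (beside 2.40%), 1 (2.13% beside 4.73%) and 2 (4.26% beside 6.05%), all below the share of all genes, and 4 (8.51% beside 5.36%) in WT cells with ATRA.

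Down-regulated members at day 10 were 5 in WT cells with the combination (10.6% of members beside 8.5% of all genes), 5 in Rarg-/- cells with BMS641 (beside 7.82%), 5 in Rarg-/- cells with the combination (beside 7.3%) and 4 in Rarb-/- cells with BMS961 (beside 6.96%). Rarb-/- cells had 3 with ATRA (beside 10.3%) and 3 with the combination (beside 7.64%). Rara-/- cells had 2 with ATRA (beside 10.4%), 2 with BMS961 (beside 8.61%) and 1 with the combination (beside 6.67%). Vehicle gave 2 (beside 7.64%), and WT cells with ATRA, BMS753 or BMS961 had 1 each (beside 8.61%, 9.13% and 7.47%), as did Rarb-/- cells with BMS753 (beside 6.79%). The Rarg-/- libraries that received ATRA (beside 9.47%) or BMS753 (beside 10.3%) had 0 down-regulated members.

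At the early days, WT cells with ATRA had 1 up-regulated member at day 2 (beside 5.65%) and 9 at day 4 (19.1% beside 10.2%). WT cells with BMS753 had 4 at day 2 (beside 6.39%) and 4 at day 4 (8.51% beside 8.33%). The smallest absolute values listed at day 2 differed, at 3.55 with ATRA, 1.82 with BMS753 and 2.33 with the combination, which limits a comparison of these counts. The combination gave 1 at each of days 2 and 4 (beside 3.71% and 2.22%), and vehicle at day 4 gave 0 (beside 1.65%). Of the early libraries, ATRA at day 4 had the widest margin over all genes, but under a p-value limit of 0.001 it had 1 member (2.13% beside 2.51%), and BMS753 at day 2 had 2 (4.26% beside 1.03%). Down-regulated members were 2 with ATRA at day 4 (beside 5.7%), 1 with BMS753 at day 4 (beside 3.31%) and 1 with the combination at day 4 (beside 2.91%). They were 0 at day 2 with ATRA (beside 2.57%), BMS753 (beside 1.88%) and the combination (beside 1.48%), and 0 with vehicle at day 4 (beside 0.57%).

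**Figure D1:**
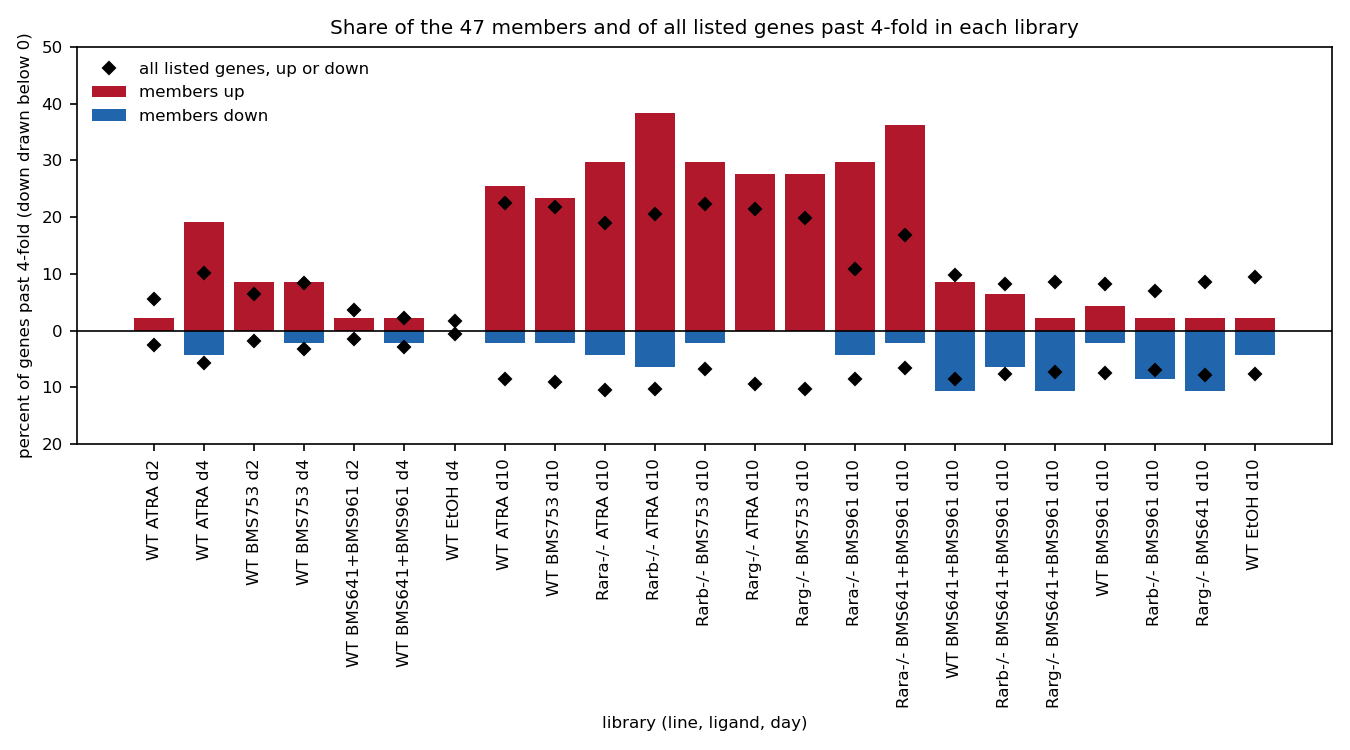
Percent of the 47 members (bars, red up-regulated and blue down-regulated past 4-fold, drawn below 0) and of all 1753 listed genes (diamonds) in each of the 23 libraries. In Rara-/- cells with BMS961 the bar for up-regulated members reached 29.8% and the diamond 10.9%, while in WT cells with ATRA at day 10 they were 25.5% and 22.5%.

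Of the 13 guidance receptors, 7 were listed in 6 or more tables, where all genes gave 29.3%. Nrp1, the neuropilin that binds class 3 semaphorins and VEGF, had log2 fold changes at day 10 of 6.95 ± 2.21 (implied SE) in WT cells with ATRA and 5.67 ± 2.06 with BMS753. In Rara-/- cells it was at 7.39 with ATRA, 5.82 with BMS961 and 5.15 with the combination. It was at 7.05 in Rarb-/- cells with ATRA and 6.55 with BMS753, and at 7.93 in Rarg-/- cells with ATRA and 6.70 with BMS753. In WT cells with ATRA it was already at 6.76 ± 2.23 at day 4. Nrp1 was listed in every ATRA or BMS753 library at day 10, in both Rara-/- libraries with other agonists, and in none of the other 7 day 10 libraries.

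Epha3, an Eph receptor that binds ephrin-A ligands, was listed in those same libraries, and at day 4 with ATRA in WT cells was at 6.39 ± 2.07. Its lowest value at day 10 was 4.47 ± 1.67 in Rara-/- cells with BMS961 and its highest 8.53 ± 2.21 in Rarb-/- cells with ATRA. Between these came 5.17 and 6.25 in WT cells with ATRA and BMS753, 5.06 and 5.36 in Rara-/- cells with ATRA and the combination, 5.56 in Rarb-/- cells with BMS753, and 6.34 and 5.64 in Rarg-/- cells with ATRA and BMS753. The Rarb-/- value with ATRA stood 3.36 above the WT value, a gap wider than either SE, and the other values lay closer together.

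Unc5c, a netrin receptor that mediates repulsion, had the narrowest range of the widely listed members, from 4.95 to 5.89 over 11 tables. In WT cells at day 4 it was at 5.08 with ATRA and 5.34 with BMS753. At day 10 it was at 5.02 and 5.62 in WT cells with ATRA and BMS753, 5.58, 5.02 and 5.20 in Rara-/- cells with ATRA, BMS961 and the combination, 5.05 and 4.95 in Rarb-/- cells and 5.89 and 5.67 in Rarg-/- cells with ATRA and BMS753. Its SEs of 1.64 to 1.98 were larger than the whole range of its values. Nrp1, Epha3 and the synaptic gene Nrxn3 were listed or not listed alike in all 23 tables, and Unc5c was alike with them in 22.

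Robo3, a Robo family receptor that governs midline crossing of commissural axons, was also listed in WT cells with the combination, at 4.43 ± 1.64. With ATRA at day 4 WT cells were at 7.86 ± 2.22. Its other day 10 values were 7.02 and 7.70 in WT cells with ATRA and BMS753, 5.27, 4.42 and 5.94 in Rara-/- cells with ATRA, BMS961 and the combination, 8.78 ± 2.19 in Rarb-/- cells with BMS753 and 6.96 in Rarg-/- cells with BMS753. It was not listed with ATRA in the Rarb-/- and Rarg-/- lines, although BMS753 gave high values in both. At the SEs of its listed values a change under 4.22 to 5.72 would not have reached the tables.

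Plxna4, a plexin that signals for semaphorins, was listed in 6 day 10 tables. It was at 5.58 with ATRA in WT cells, 4.10 with the combination in Rara-/- cells, 6.69 and 5.00 in Rarb-/- cells with ATRA and BMS753, and 7.51 and 5.35 in Rarg-/- cells with ATRA and BMS753. Plxna2, another plexin, appeared early, at 5.03 ± 1.64 with ATRA at day 2 and 4.64 ± 1.69 with BMS753 at day 4 in WT cells, and in no day 10 table. Dcc, the attractive netrin receptor, was listed at 3.69 and 4.51 in Rara-/- cells with BMS961 and the combination and at 6.12 in Rarb-/- cells with BMS753. Nrp2, the other neuropilin, was listed once, at 4.79 in Rarb-/- cells with ATRA.

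Unc5a, a netrin receptor related to Unc5c, was down-regulated in each of the 8 day 10 libraries treated with BMS641, BMS961 or both. Its values were -4.04 and -4.33 in WT cells with the combination and BMS961, -5.78 and -3.64 in Rara-/- cells with BMS961 and the combination, -3.75 and -3.49 in Rarb-/- cells with BMS961 and the combination, and -3.56 and -3.60 in Rarg-/- cells with BMS641 and the combination. It was not listed in WT cells with vehicle at day 10, nor in any ATRA or BMS753 library. At its SEs a fall smaller than 3.13 to 4.20 would have stayed out of the tables, and only the Rara-/- value with BMS961 exceeded the 4.73 that the WT ATRA table could resolve. The Rara-/- libraries with BMS961 or the combination therefore had Unc5c among the up-regulated and Unc5a among the down-regulated genes.

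Eph receptors went in different directions. Epha8 was down-regulated in 9 tables, from -3.35 ± 1.22 in Rarg-/- cells with BMS641 to -5.62 ± 1.94 in WT cells with ATRA at day 4. With the combination WT cells were at -4.52. Other values were -4.88 and -4.42 in Rara-/- cells with ATRA and BMS961, -5.45, -4.30 and -5.16 in Rarb-/- cells with ATRA, BMS961 and the combination, and -3.66 in Rarg-/- cells with the combination. Epha4, which binds ephrins of both classes, was up-regulated in 4 libraries with BMS961 or the combination, at 3.32 in WT, 4.32 and 3.96 in Rara-/- and 3.64 in Rarb-/- cells. Ephb1 was listed only in Rarg-/- cells, at -3.44 with BMS641 and -3.47 with the combination, and Epha1 only in WT cells with the combination, at -3.58. These Epha4, Ephb1 and Epha1 values were all smaller in size than 4.73 and, but for Epha4 in Rara-/- cells with BMS961, smaller than 4.17, sizes that the ATRA and BMS753 tables of day 10 mostly do not hold.

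**Figure D2:**
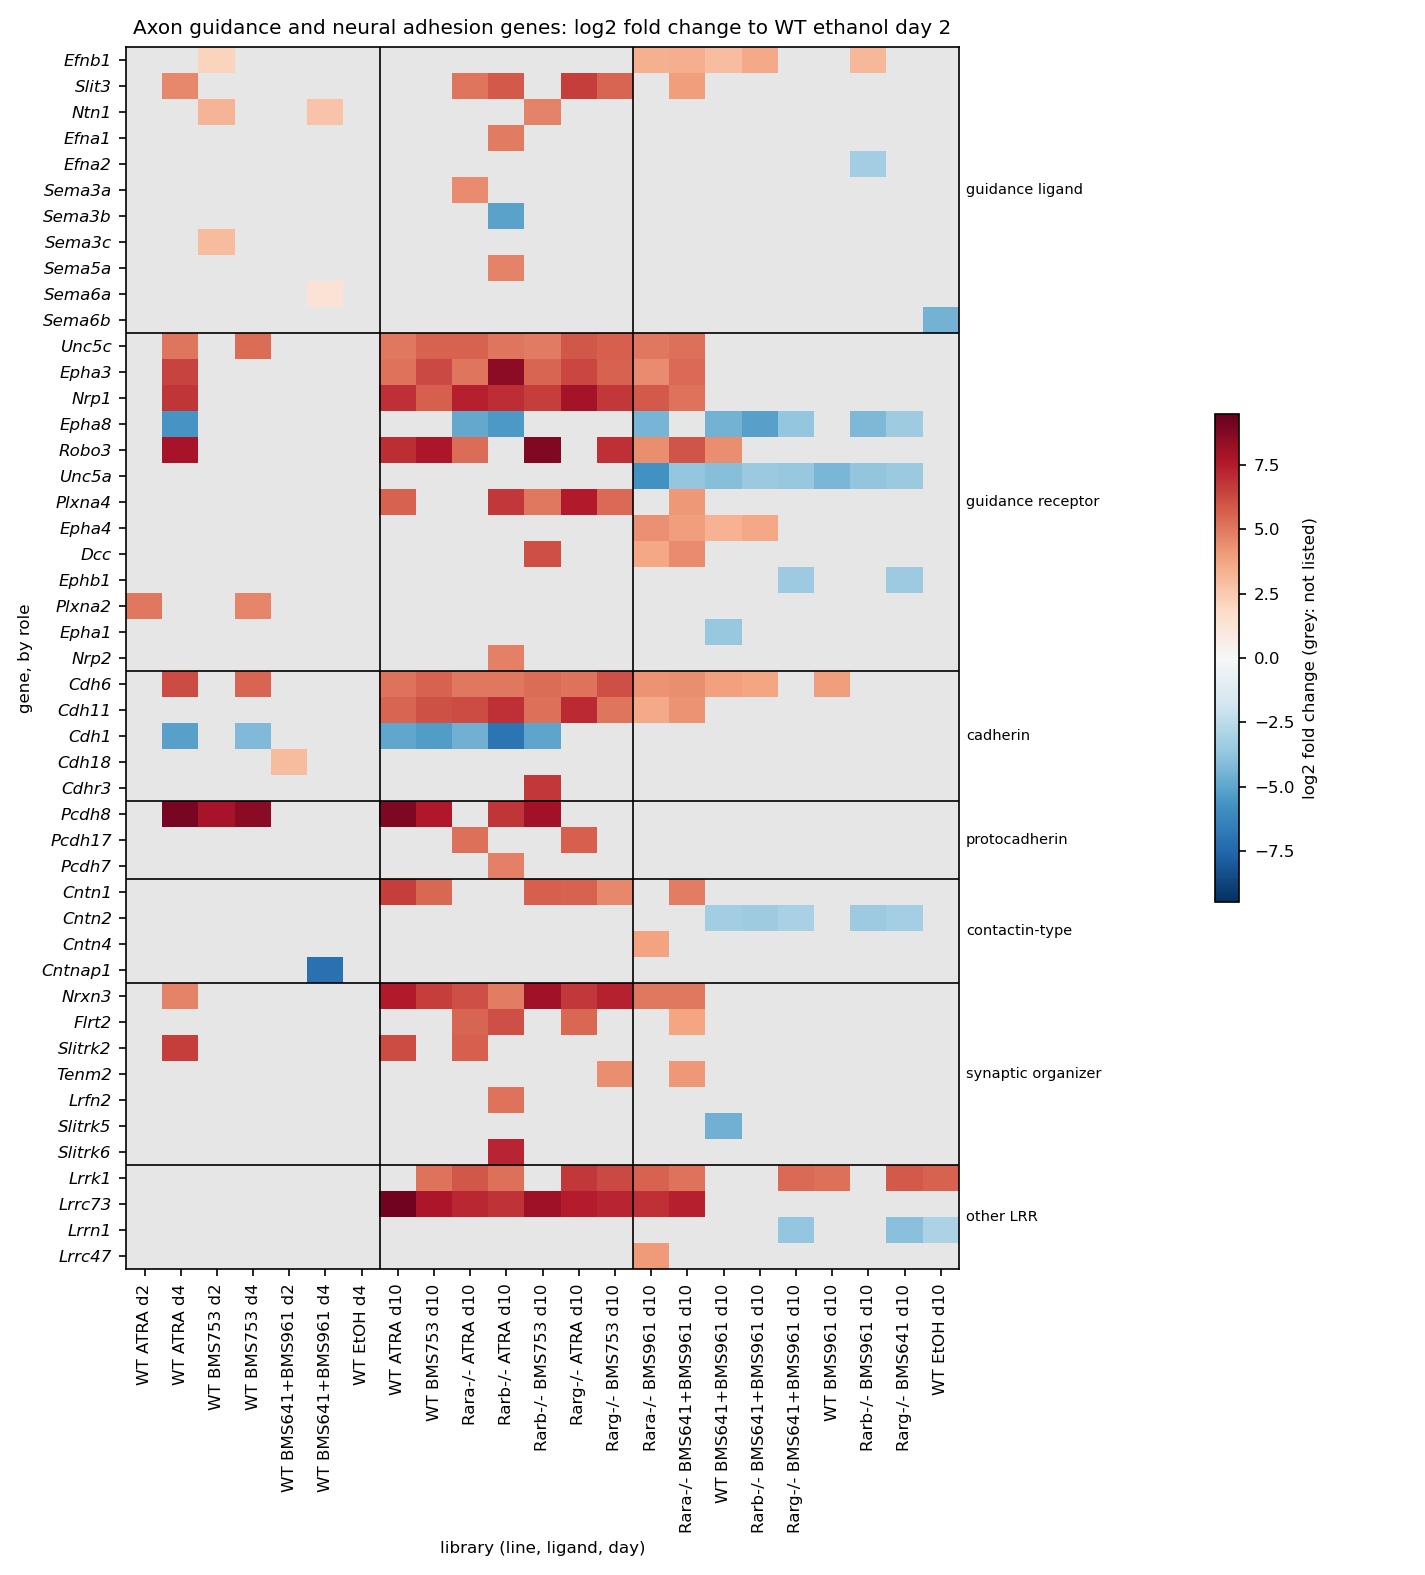
Log2 fold change relative to WT ethanol day 2 of each of the 47 members (rows, ordered by role) in 23 libraries (columns), red for higher, blue for lower and grey for not listed. Nrp1, Epha3 and Unc5c fill all 7 ATRA or BMS753 columns of day 10 and the pair of Rara-/- columns beside them, and the blue row of Unc5a covers the 8 columns with BMS641, BMS961 or both.

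Of the 11 ligands, 8 were in 1 table each, where all genes gave 33.1%. Slit3, a secreted ligand of Robo receptors, was the ligand with the largest value and was listed in 6 tables. It was at 4.56 in WT cells with ATRA at day 4, and at day 10 at 5.09 and 3.96 in Rara-/- cells with ATRA and the combination, 5.83 in Rarb-/- cells with ATRA, and 6.59 ± 2.01 and 5.50 ± 1.80 in Rarg-/- cells with ATRA and BMS753. It was in no WT table of day 10, where at its SEs a rise under 3.73 to 5.17 would not have been listed. Efnb1, a transmembrane ephrin, was at 2.12 ± 0.82 with BMS753 at day 2 and at 2.95 with the combination at day 10 in WT cells, 3.39 and 3.47 in Rara-/- cells with BMS961 and the combination, and 3.15 and 3.57 in Rarb-/- cells with BMS961 and the combination. It was not listed in Rarg-/- cells, and all its values lay below what the ATRA and BMS753 tables of day 10 could list.

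Ntn1, the secreted netrin that attracts commissural axons, was listed at 3.24 with BMS753 at day 2 and 2.68 with the combination at day 4 in WT cells, and at 4.72 in Rarb-/- cells with BMS753. That Rarb-/- library was the only one to list both Ntn1 and its receptor Dcc. The semaphorins were scattered. Sema3c was at 3.02 with BMS753 at day 2 in WT cells, Sema3a at 4.47 in Rara-/- cells with ATRA, Sema5a at 4.75 and Sema3b at -5.07 in Rarb-/- cells with ATRA, Sema6a at 1.40 with the combination at day 4 in WT cells, and Sema6b at -4.52 with vehicle at day 10. The ephrin-A ligands Efna1 and Efna2 were at 4.92 in Rarb-/- cells with ATRA and at -3.28 in Rarb-/- cells with BMS961.

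Among cadherins, Cdh1 (E-cadherin, the adhesion molecule of epithelia and pluripotent cells) was down-regulated while Cdh6 and Cdh11 were up-regulated. Cdh1 in WT cells was at -5.13 ± 1.78 with ATRA and -4.21 ± 1.61 with BMS753 at day 4, and at -4.95 and -5.28 at day 10. It was at -4.53 in Rara-/- cells with ATRA, and at -6.96 and -5.02 in Rarb-/- cells with ATRA and BMS753. Cdh1 was not listed in either Rarg-/- library with these ligands, nor in any library with BMS641, BMS961, the combination or vehicle. At the SEs of its listed values, all from ATRA or BMS753 libraries, a fall smaller than 4.15 to 5.23 would not have been listed. Day 10 tables with other agonists or vehicle began at 2.71 to 3.35, so the limit there may be lower.

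Cdh6 (K-cadherin) was the member listed most often, in 14 tables. In WT cells it was at 6.23 with ATRA and 5.55 with BMS753 at day 4, and at day 10 at 5.16 and 5.60 with these ligands, 3.88 with the combination and 3.95 with BMS961. Rara-/- cells had 5.01 with ATRA, 4.26 with BMS961 and 4.43 with the combination. Rarb-/- cells had 5.03, 5.28 and 3.77 with ATRA, BMS753 and the combination, and Rarg-/- cells 5.14 and 6.09 with ATRA and BMS753. Its 7 day 10 values with ATRA or BMS753 lay between 5.01 and 6.09 and the other 5 between 3.77 and 4.43, without overlap, but the tables with the higher values could not list values as small as the lowest of the others.

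Cdh11, a cadherin of mesenchyme and neurons, was listed at day 10 only, at 5.52 and 6.05 in WT cells with ATRA and BMS753, 6.22, 3.58 and 4.30 in Rara-/- cells with ATRA, BMS961 and the combination, 6.92 and 5.21 in Rarb-/- cells and 7.11 ± 2.05 and 5.11 in Rarg-/- cells with ATRA and BMS753. Its lowest values were those of Rara-/- cells with BMS961 or the combination. Cdh18 was listed once at 3.0 with the combination at day 2, and Cdhr3 once at 6.73 in Rarb-/- cells with BMS753.

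Pcdh8, a protocadherin that regulates cadherin-based adhesion and dendritic spines, was listed from day 2 on. In WT cells with BMS753 it was at 7.83 ± 2.25 at day 2, 8.60 ± 2.82 at day 4 and 7.61 ± 2.58 at day 10, and with ATRA at 8.99 ± 2.82 at day 4 and 8.83 ± 2.65 at day 10. It was at 6.80 ± 2.60 and 7.98 ± 2.56 in Rarb-/- cells with ATRA and BMS753. No Rara-/- or Rarg-/- library listed it, and no library with BMS641, BMS961 or both did. With its SEs, all from ATRA or BMS753 libraries, a value under 5.79 to 7.28 could not have been listed. Lower but still large changes in those lines are thus not detectable here. Pcdh17 was listed with ATRA in Rara-/- cells at 5.21 and in Rarg-/- cells at 5.65, and Pcdh7 at 4.79 in Rarb-/- cells with ATRA.

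**Figure D3:**
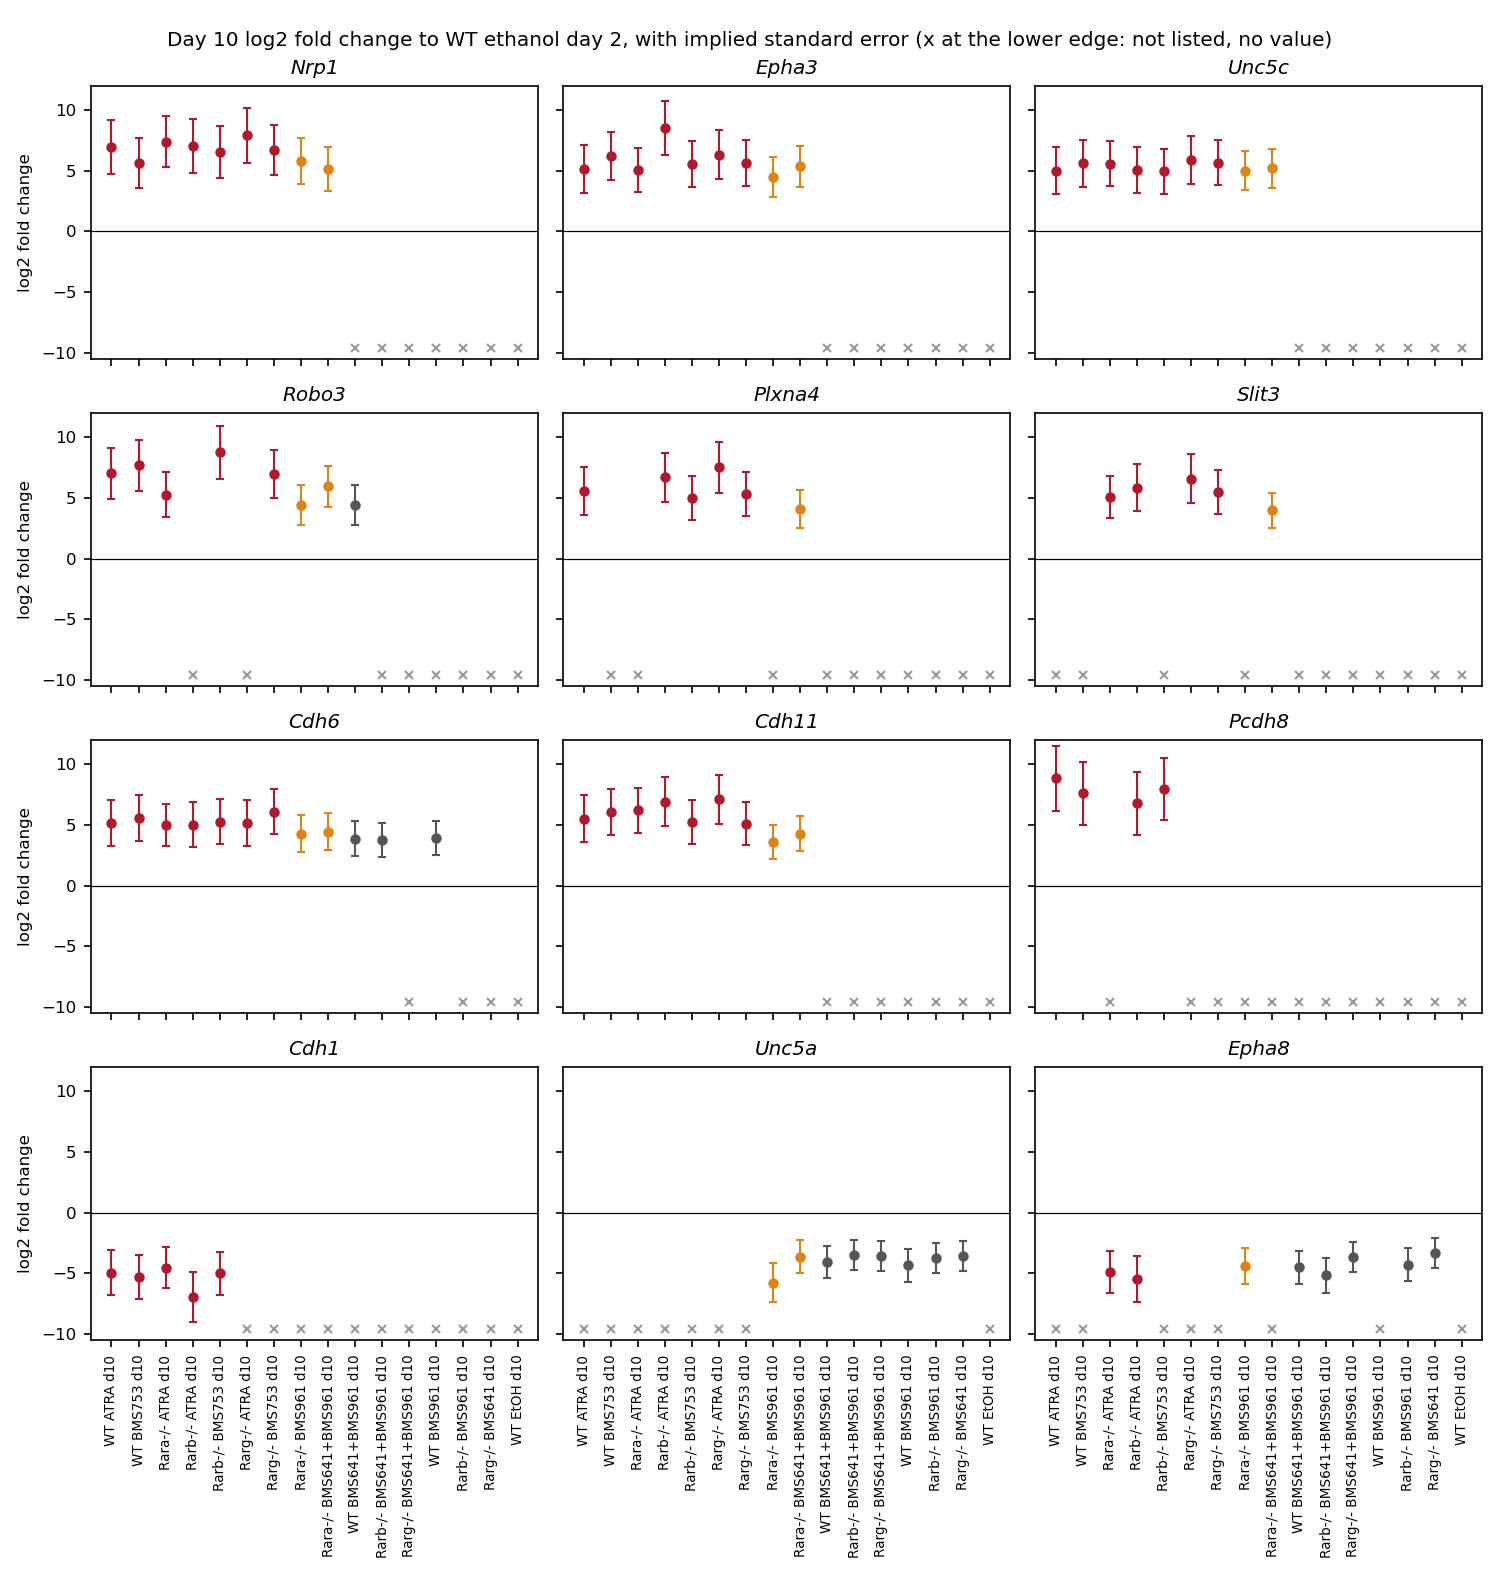
Log2 fold change at day 10 relative to WT ethanol day 2 for 12 members, with the implied SE as error bars and 1 library per point. Red points are ATRA or BMS753 libraries, orange points Rara-/- cells with BMS961 or the combination, dark grey points the other libraries, and a cross at the lower edge marks a library that does not list the gene. Pcdh8 has points in WT and Rarb-/- cells alone (6.80 to 8.83), and Unc5a has points in the orange and dark grey libraries alone (-5.78 to -3.49).

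Among contactin-type genes, Cntn1 and Cntn2, axonal immunoglobulin adhesion molecules, were listed in opposite directions and in different libraries. Cntn1 was up-regulated at day 10 at 6.55 ± 2.05 and 5.44 in WT cells with ATRA and BMS753, 4.88 in Rara-/- cells with the combination, 5.65 in Rarb-/- cells with BMS753, and 5.58 and 4.55 in Rarg-/- cells with ATRA and BMS753. Cntn2 was down-regulated at -3.31 in WT cells with the combination, -3.43 and -3.37 in Rarb-/- cells with BMS961 and the combination, and -3.20 and -3.05 in Rarg-/- cells with BMS641 and the combination. Values of that size could not appear in the ATRA and BMS753 tables of day 10. Cntn4 was listed once, at 3.82 in Rara-/- cells with BMS961. Cntnap1, a contactin partner at the paranodes of myelinated axons, was at -7.09 ± 2.44 with the combination at day 4 in WT cells and in no other table, the largest fall of any member.

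Nrxn3, a presynaptic neurexin, had the largest value of the synaptic organizers. It was at 4.75 with ATRA at day 4 in WT cells, and at day 10 at 7.52 ± 2.13 and 6.57 ± 1.98 in WT cells with ATRA and BMS753, 6.12, 5.02 and 5.04 in Rara-/- cells with ATRA, BMS961 and the combination, 4.87 and 7.99 in Rarb-/- cells with ATRA and BMS753, and 6.72 and 7.29 in Rarg-/- cells with ATRA and BMS753. The gap of 3.12 between ATRA and BMS753 in Rarb-/- cells was wider than either SE. The gap of 2.77 between days 4 and 10 with ATRA in WT cells was as well.

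Flrt2, a leucine-rich repeat ligand of Unc5 receptors, was listed with ATRA in each mutant line, at 5.50 in Rara-/-, 6.11 in Rarb-/- and 5.45 in Rarg-/- cells, and at 3.76 in Rara-/- cells with the combination, but in no WT table. At its SEs a rise under 3.71 to 5.05 would not have been listed. Slitrk2, a postsynaptic organizer, was at 6.58 and 6.17 with ATRA at days 4 and 10 in WT cells and 5.66 in Rara-/- cells with ATRA. Tenm2, a teneurin, was at 4.11 with the combination in Rara-/- cells and 4.41 with BMS753 in Rarg-/- cells. Slitrk6 at 7.26 and Lrfn2 at 5.19 were listed once each, in Rarb-/- cells with ATRA, and Slitrk5 once, at -4.58, in WT cells with the combination.

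Leucine-rich repeat genes without an established guidance role entered through their names. Lrrc73 had the largest member value of all, 9.16 ± 2.66 in WT cells with ATRA, and was at 7.70 with BMS753, 7.16, 6.98 and 7.38 in Rara-/- cells with ATRA, BMS961 and the combination, 6.88 and 8.04 in Rarb-/- cells and 7.49 and 7.25 in Rarg-/- cells with ATRA and BMS753. It was listed or not listed alike with Cdh11 in all 23 tables. Lrrk1, a kinase with such repeats, was up-regulated in vehicle at day 10 too, at 5.59 ± 1.70. It was at 5.19 with BMS753 and 5.26 with BMS961 in WT cells, 5.91, 5.60 and 5.18 in Rara-/- cells with ATRA, BMS961 and the combination, 5.23 in Rarb-/- cells with ATRA, and 6.72, 6.27, 5.81 and 5.38 in Rarg-/- cells with ATRA, BMS753, BMS641 and the combination. The vehicle value lay within this range. Lrrk1 was not listed in WT cells with ATRA or the combination, nor in Rarb-/- cells with BMS753, BMS961 or the combination, and at its SEs a value under 4.24 to 5.42 would not have been listed. Lrrn1 was at -3.03 in vehicle and at -3.98 and -3.65 in Rarg-/- cells with BMS641 and the combination, and Lrrc47 at 4.07 in Rara-/- cells with BMS961.

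In WT cells at day 10, ATRA and BMS753 gave values for 11 common members, and each of the 11 gaps was smaller than the larger SE, from 0.33 for Cdh1 to 1.46 for Lrrc73. A gap exists only where both values passed the p-value limit, and members that differ by more can drop out as not listed. Small gaps are therefore partly built in, here and in the comparisons below, and do not show that the libraries are alike. Of these 11, 5 were higher and 6 lower with BMS753. Plxna4 and Slitrk2 were listed with ATRA only and Lrrk1 with BMS753 only. In Rara-/- cells, BMS961 alone and the combination gave values for 13 common members, 10 of them higher and 3 lower with the combination. Of the 13 gaps, 12 were under the larger SE. The exception was Unc5a, 2.14 lower with BMS961 alone. Cntn1, Flrt2, Plxna4, Slit3 and Tenm2 were listed with the combination only, and Cntn4, Epha8 and Lrrc47 with BMS961 only.

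The combination gave 5 members a value in both WT and Rara-/- cells, namely Cdh6, Efnb1, Epha4, Robo3 and Unc5a. Their gaps of 0.40 to 1.51 were all under the larger SE, again among members listed in both lines only. All 5 values were higher in Rara-/- cells, which for Unc5a means a smaller fall. Of the pair, 13 members (27.7% beside 13.7% of all genes) were listed in Rara-/- cells only, among them Nrp1, Epha3, Unc5c, Nrxn3, Cdh11, Dcc and Plxna4, and 4 (8.51% beside 8.67%) in WT cells only, all down-regulated (Cntn2, Epha1, Epha8 and Slitrk5). The tables began at absolute values of 2.75 in WT and 3.35 in Rara-/- cells, and Cntn2, at -3.31 in WT cells, lay below what the Rara-/- table holds. For single members the limit was often higher. At their SEs, changes under 4.76 to 5.82 for Nrp1 and 4.30 to 5.70 for Epha3 would not have been listed. For Unc5c these limits were 4.22 to 5.10 and for Nrxn3 4.09 to 5.50. In that order, the Rara-/- values of these genes were 5.15, 5.36, 5.20 and 5.04, so smaller rises in WT cells could have gone unlisted. The difference between the lines was not tested, since each has 1 library. With ATRA, 10 members had a value in both WT and Rarb-/- cells, and 8 gaps were under the larger SE, the exceptions being Epha3 and Nrxn3. The Rarb-/- library with ATRA held 7 members listed nowhere else (14.9% beside 4.05% of all genes), namely Efna1, Sema3b, Sema5a, Slitrk6, Nrp2, Pcdh7 and Lrfn2. They are members only because this library lists them, and the genes behind the 4.05% entered the same way. All but Sema3b are also among the 18 up-regulated members of this library. Neither share was tested, and they are not independent of how the genes were chosen.

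Over time, WT cells with ATRA listed Plxna2 alone at day 2. At day 4 they had 11 members, and 9 of these were listed at day 10 as well, where Epha8 and Slit3 were not and Cdh11, Cntn1, Lrrc73 and Plxna4 were added. Of the 9 common gaps, 8 were under the larger SE. With BMS753, day 2 listed Pcdh8, Ntn1, Sema3c and Efnb1, and day 4 listed Pcdh8, Unc5c, Cdh6, Plxna2 and Cdh1. The smallest absolute value listed at day 2 was 3.55 with ATRA and 1.82 with BMS753. Ntn1, Sema3c and Efnb1, at 3.24, 3.02 and 2.12 with BMS753, thus lay below the sizes that ATRA at day 2 lists. Epha3, Nrp1, Nrxn3 and Robo3 were listed at day 4 with ATRA and not with BMS753, and at day 10 with both.

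**Figure D4:**
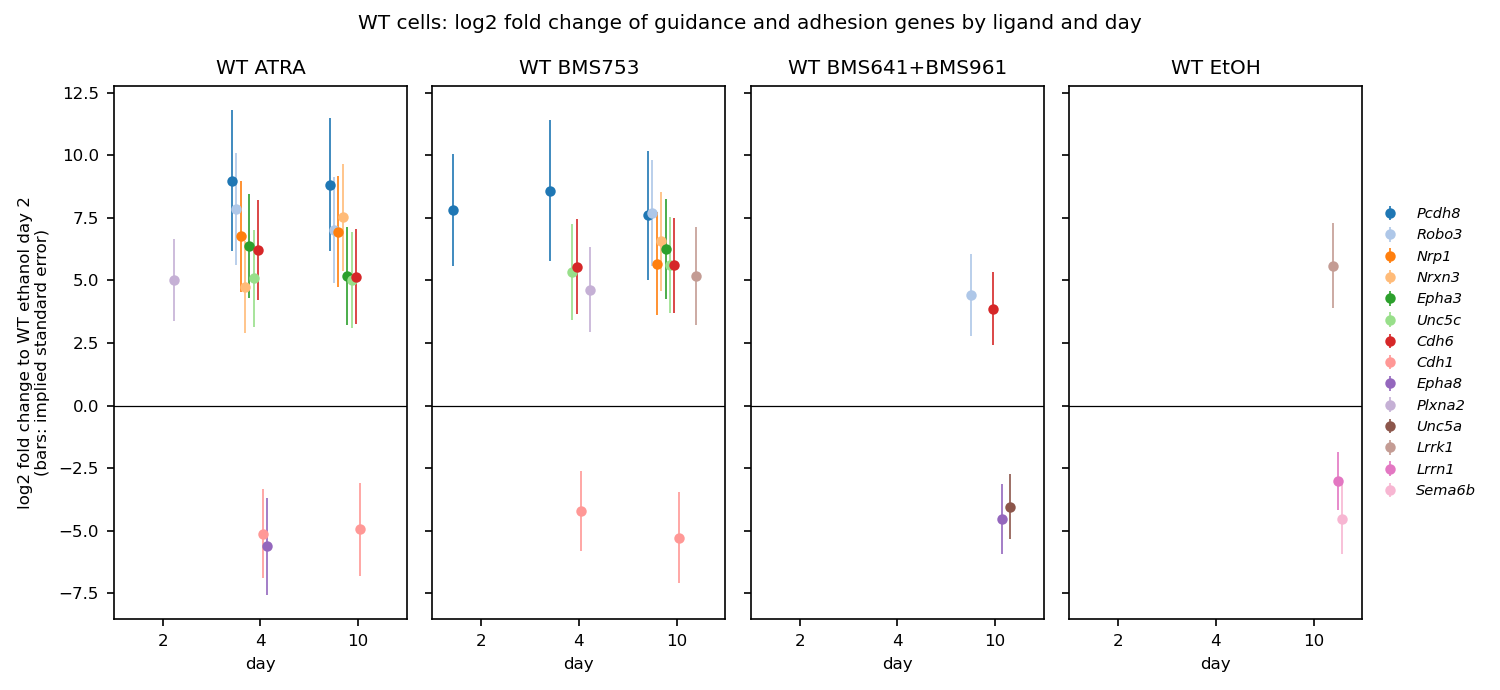
Log2 fold change relative to WT ethanol day 2 (vertical axis, bars are the implied SE) of 14 members in WT cells at days 2, 4 and 10 of ATRA, BMS753, the combination or ethanol. A missing point is a library that does not list the gene, and ethanol day 2 is the reference itself. Pcdh8 stands at 7.83 with BMS753 at day 2, and with the combination the plotted members have points at day 10 only. Members listed earlier with the combination are not plotted (Cdh18 at day 2, and Ntn1, Sema6a and Cntnap1 at day 4).

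Guidance and adhesion genes outside these names were read from a list of 53 chosen by textbook role, of which 20 were in any table. The shares of all genes up-regulated in each library, given above, are over genes in at least 1 table. The base that matches them is therefore the 20 genes and not the 53. No test of these counts was made. In WT cells at day 10, ATRA had 12 of them up-regulated, BMS753 11, the combination 4, BMS961 2 and vehicle 1. In Rara-/- cells 5 were up-regulated with ATRA, 5 with BMS961 and 10 with the combination. In Rarb-/- cells there were 2 with ATRA, 13 with BMS753 and 1 each with BMS961 and the combination, and in Rarg-/- cells 8 with ATRA, 11 with BMS753 and 0 with either other treatment.

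Gap43, a growth cone protein, was at 6.30 and 5.54 in WT cells with ATRA and BMS753, 3.07 with the combination, and 3.71 and 4.39 in Rara-/- cells with BMS961 and the combination. Dcx, the microtubule protein of migrating neurons, was at 8.35, 7.56 and 4.67 in those WT libraries and 3.91 and 5.55 in those Rara-/- libraries. Both were listed in WT cells with the combination, where Nrp1, Epha3 and Unc5c were not. At the SEs of their listed values, the lowest limits of these receptors were 4.76, 4.30 and 4.22, above the Gap43 value there. A rise of the size of Gap43 would thus not have been listed for them. Thy1, a surface glycoprotein of neurons, was down-regulated in the 8 day 10 libraries with BMS641, BMS961 or both, from -3.62 to -6.01, and in WT cells at day 4 was at -7.08 with ATRA and -6.74 with BMS753. It was not listed with vehicle or in the ATRA and BMS753 libraries of day 10. Those ATRA and BMS753 tables begin at absolute values of 4.17 to 4.73. Kirrel2 was the only other gene of this list down-regulated in any library. With BMS961 it was at -6.44 in WT and -7.83 in Rarb-/- cells. Rarb-/- cells with the combination were at -5.26 and Rarg-/- cells with BMS641 at -5.06.

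Markers of other cells moved in the same libraries. Of 8 neuron markers at day 10, 4 were up-regulated in WT cells with ATRA, 3 with BMS753 and 0 with the combination, BMS961 or vehicle. Only 5 of these 8 were in any table, compared with all 6 mesenchyme markers and 4 of 5 pluripotency markers below. The shares of all genes given above cover genes in at least 1 table only. In Rara-/- cells 1 was up-regulated with ATRA, 1 with BMS961 and 2 with the combination, in Rarb-/- cells 2 with ATRA and 5 with BMS753, and in Rarg-/- cells 3 with each. Of 6 mesenchyme markers, 5 were up-regulated in WT cells with ATRA and 5 with BMS753, 6 in each mutant line with ATRA, 5 and 4 with BMS753 in Rarb-/- and Rarg-/- cells, and 2 and 4 in Rara-/- cells with BMS961 and the combination, compared with 0 or 1 in the other 7 libraries. Col3a1, a fibrillar collagen, was at 10.2 with ATRA in WT cells and at 8.33 with the combination in Rara-/- cells. At the early days 0 neuron markers were up-regulated in any library. With ATRA at day 4, Col3a1, Twist1 and Gata6 were up-regulated (6.73, 6.13 and 6.29) and 4 pluripotency markers and Aldh1l1 down-regulated. With BMS753 at day 4, Col3a1, Twist1, Gata6 and Pdgfra were up-regulated (5.23, 7.01, 5.88 and 7.45) and 2 pluripotency markers down-regulated, and at day 2 the muscle gene Actc1 was at 3.25. With ATRA at day 2, Gata6 and Pdgfra were up-regulated and 3 pluripotency markers down-regulated. Of 5 pluripotency markers, 1 to 4 were down-regulated in every day 10 library, vehicle included, with 3. Among glial lists, the defining genes Gfap, Aqp4, Slc1a3, Olig1 and Olig2 were in no table. Pdgfra, on the oligodendrocyte precursor list and also made by mesenchyme, was up-regulated in every day 10 library except WT cells with the combination, BMS961 or vehicle, from 6.97 to 13.1, and Aldh1l1, an astrocyte marker, was down-regulated in 12 day 10 libraries, from -3.79 to -9.23, vehicle included. Kdr (endothelium) was up-regulated in 5 day 10 libraries and Gata6 (endoderm) in 4, with ATRA, BMS753 or, for Kdr in Rara-/- cells, the combination. Krt8 was up-regulated with vehicle and in 5 libraries with BMS641, BMS961 or both, Krt18 with vehicle and in 2 of these, Krt14 in 3 ATRA or BMS753 libraries and Krt5 in WT cells with BMS753. The part of these cell types in the values of Nrp1, Epha3, Unc5c, Cdh6, Cdh11 and the other members was not tested.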

How the data were processed

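RNA-seq of 24 P19 libraries was used, 1 per condition. Per the labels and the methods of the study, the authors mapped reads to mm9 with Bowtie2 2.1.0, assigned them to genes by featureCounts, and used DESeq2 for the comparisons. The deposited values are the authors' log2 fold changes, with unadjusted p-values, for each library against WT ethanol day 2, all under 0.01, in 23 tables of 57 to 546 genes. These columns are the authors' own comparison and the only measurements used here. One table also holds the authors' standard error, a score in log2 units. No read counts were used here, and library depth is unknown.

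Members were matched by symbol, with 1 further symbol not reported here, and both the members and the lists were chosen with earlier results of these data known. Members with an absolute log2 fold change over 2 were counted beside all 1753 listed genes. The SE implied by each fold change and a two-sided normal p-value was computed, and in the table with a deposited SE the largest relative deviation over its 144 genes was 4.27e-08. With 1 library per condition no test was fitted. Values in every library are given for members in 6 or more tables and for the member with the largest absolute value of each role, and others by their tables. Likeness of members is the number of tables in which both or neither are listed. Promoter windows came from RefSeq, and coordinates are those of mm9, with 2 members (Lrrc73 and Tenm2) found under older symbols. The counting was tested on simulated data. Alternatives were fold thresholds of 1 and 3, a p-value limit of 0.001, families without the broad Lrr and Igsf names, removal of members also changed in vehicle and, for the share of up-regulated genes that are members, all listed genes of either direction. A threshold of 5 and removal of the Rarb-/- ATRA table were added after seeing the data. Scripts ran in Python 3.11.15 with scipy 1.17.1, numpy 2.4.6, pandas 2.3.3 and, for plots, matplotlib 3.10.9.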

Additional observations from a re-analysis of the deposited data

How the results depend on the processing

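No paired analysis was possible because each condition has 1 library. For the same reason no library was left out of a group. Depth is unknown, and genes not listed have no value, which ties each count to the smallest value its table holds. Of the 46 counts of members (up and down in 23 libraries), 45 stayed within 1.5 times under a threshold of 1 and 45 under a threshold of 3. Most of these counts could not have moved, which leaves these thresholds uninformative about stability. Of the 200 member values, 199 were already past 2 in size. ATRA and BMS753 libraries of day 10 list no value under 4.17, so a threshold of 3 removes none of theirs. The exception was the combination at day 4 in WT cells, with 2 up-regulated members under the threshold of 1 and 0 under the threshold of 3.

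A p-value limit of 0.001 moved 38 counts. Up-regulated members were then 0, 1 and 4 in WT cells with ATRA at days 2, 4 and 10 (beside 0.285%, 2.51% and 5.36% of all genes), 2, 0 and 2 with BMS753 (1.03%, 1.43% and 6.22%), 0 with the combination at each day (0.285%, 0.171% and 2.05%), and 0 with BMS961 and with vehicle at day 10 (1.31% and 1.83%). They were 2, 0 and 1 in Rara-/- cells with ATRA, BMS961 and the combination (5.25%, 2.40% and 4.73%), 2, 2, 0 and 0 in Rarb-/- cells with ATRA, BMS753, BMS961 and the combination (6.05%, 5.88%, 0.570% and 1.31%), and 4, 2 and 0 in Rarg-/- cells with ATRA, BMS753 and the combination (5.59%, 5.19% and 2.00%). Down-regulated members were 1 in Rara-/- cells with BMS961 (beside 2.22%), 1 in Rarb-/- cells with ATRA (3.02%) and 1 with the combination (1.77%), and 0 in the other 20 libraries (0 to 2.97%). In Rara-/- cells with BMS961 or the combination and in Rarb-/- cells with ATRA the share of members was then below that of all genes (0, 2.13% and 4.26% of members).

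Without the Lrr and Igsf names, up-regulated members were 0 in vehicle at day 10, 1 in WT cells with BMS961 and 0 in Rarg-/- cells with BMS641 or the combination, and down-regulated members in vehicle were 1. Without members also changed in vehicle, they were 1, 0 and 0 in the same WT BMS961, Rarg-/- BMS641 and Rarg-/- combination libraries. Under a threshold of 5, which lies above the smallest value of every table, 21 counts moved. Up-regulated members were then 1 with BMS753 at day 2 (beside 1.71% of all genes), 0 with the combination at days 2, 4 and 10 (1.94%, 1.31% and 5.31%) and 1 with BMS961 (4.39%) in WT cells, 5 and 7 in Rara-/- cells with BMS961 and the combination (6.62% and 9.93%), and 0 in Rarb-/- cells with either BMS961 or the combination (3.94% and 4.34%). Down-regulated members were 1 in Rara-/- cells with BMS961 (5.25%) and 1 in Rarb-/- cells with the combination (2.45%), and 0 in the other 10 moved counts (2.28% to 8.10%). The share of up-regulated genes that are members was also taken over all listed genes, with members of either direction counted. It stayed within its 95% exact binomial interval in all 23 libraries, but these intervals are wide. The share went from 0.671% to 2.1% and from 0.662% to 2.15% in Rarg-/- cells with BMS641 and the combination. In Rarb-/- cells with BMS961 it went from 0.813% to 2.04%, and with vehicle at day 10 from 0.599% to 0.997%. It fell from 7.33% to 4.68% in Rara-/- cells with BMS961 and from 3.74% to 2.46% in Rarg-/- cells with BMS753. Without the Rarb-/- ATRA table the count of members up-regulated only stayed within 1.5 times.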
